A study of Mus musculus with 6 samples.

Results

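The oligoadenylate synthetase (OAS) genes of the mouse were examined in splenic plasmacytoid dendritic cells (C57BL/6 mice). All 8 genes chosen by symbol (Oas1a, Oas1b, Oas1c, Oas1g, Oas2, Oas3, Oasl1 and Oasl2) were found among the 52550 genes of the deposited files. Both groups had received R837 (imiquimod), an agonist of the RNA sensor TLR7, for 12 hours. The comparison group received R837 alone (3 libraries) and the other group R837 together with taurine (3 libraries). Cells without R837 were not analysed here, so each value describes stimulated cells, and the taurine dose is not given in the labels. Whether the libraries of a group stem from different animals or cultures is not stated, and p-values therefore measure only the spread between these libraries, which may be technical.

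OAS proteins are sensors of double-stranded RNA that type I interferon induces in most cells. Once bound to such RNA, the active members join ATP into short 2′-5′-linked oligoadenylates (2-5A), the messenger of an antiviral response that breaks down viral and cellular RNA. Mice have a cluster of duplicated Oas1 genes beside Oas2 and Oas3, and a separate pair, Oasl1 and Oasl2, whose proteins carry ubiquitin-like domains. Oasl2 has kept synthetase activity, whereas Oasl1 makes no 2-5A and is known in mice to hold back translation of Irf7 mRNA. In plasmacytoid dendritic cells IRF7 is the factor that drives interferon alpha.

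The genes lie on chromosome 5 (mm10) in separate places. Oas1a, Oas1b, Oas1c, Oas1g, Oas2 and Oas3 spread over 177.2 kb, and Oasl1 and Oasl2 over 41.0 kb, 5792 kb away. GENCODE M21 lists 7 of the 8 as protein-coding and Oas1b as a polymorphic pseudogene. The C57BL/6 allele of Oas1b is known to carry a premature stop, and the intact allele is known for resistance of mice to flaviviruses.

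Promoter sequences (RefSeq, GRCm38.p6, 250 bases before to 50 after the start site) were given for 6 of the 8 genes. They were searched on both strands for GAAANNGAAA, the core of the interferon-stimulated response element (TTTCNNTTTC on the other strand). Of all 32851 promoter windows of 300 bases, 3.44% held a match. Matches stood in the windows of Oas1a, Oas1g, Oas1c and Oas3, and no match in those of Oasl1 and Oasl2. The lack of a match covers only these letters in this window, as variants of the element and places outside the window were not searched. The 120 bases before the start site of the 4 genes with a match are shown 5′ to 3′ on the strand of the gene, with the matching letters in capitals. They are shown because 3 Oas1 copies share 1 run of these letters and differ in transcript level.
Oas1a, chr5:120907526-120907645, minus strand: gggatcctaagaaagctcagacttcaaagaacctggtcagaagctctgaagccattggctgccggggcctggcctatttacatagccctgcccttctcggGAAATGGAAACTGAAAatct
Oas1g, chr5:120887614-120887733, minus strand: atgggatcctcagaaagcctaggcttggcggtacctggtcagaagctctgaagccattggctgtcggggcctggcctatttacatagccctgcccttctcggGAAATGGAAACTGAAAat
Oas1c, chr5:120812515-120812634, minus strand: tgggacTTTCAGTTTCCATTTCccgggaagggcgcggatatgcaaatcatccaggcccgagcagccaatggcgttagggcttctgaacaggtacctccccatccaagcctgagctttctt
Oas3, chr5:120777660-120777779, minus strand: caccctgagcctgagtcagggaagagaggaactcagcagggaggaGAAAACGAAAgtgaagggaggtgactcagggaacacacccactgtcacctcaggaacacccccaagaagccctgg

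In Oas1a, Oas1g and Oas1c the capitals are 2 overlapping matches that together form 1 run of 16 bases, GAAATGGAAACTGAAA, which reads on the opposite strand in Oas1c. Only 7 of the 32851 promoter windows held this run on either strand, and they belong to 5 gene symbols: Oas1a, Oas1c, Oas1g, Apol9a and Apol9b. The start sites of Oas1c and Oas1b lie head to head, 121 bases apart, so the run in the Oas1c window (120812613 to 120812628) also lies 7 to 22 bases before the start of Oas1b, in the orientation of Oas1b. A GAS-type motif, TTCNNNGAA, which reads the same on both strands, was in 8.30% of all windows and, of these 6 genes, in that of Oas1a alone. A match describes letters and does not show that a factor was bound.

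The libraries held 33585080 to 38392654 reads on genes. Values are normalized counts, which are reads divided by 1 factor per library. A change is the difference in mean log2(normalized count + 1) between the groups, positive where taurine is higher, and its limma p-value was adjusted by Benjamini-Hochberg over all 15265 genes tested. All 8 genes passed the filter on low values (at least 10 in at least 3 libraries), each of them in all 6 libraries. Of the marker genes of plasmacytoid dendritic cells 15 of 15 were tested, with a summed level of 412401 to 448700 with R837 and 431210.3 to 444753 with taurine. Of these 15 genes, 2 (Bst2 and Cox6a2) were called higher with taurine and 5 (Tcf4, Runx2, Klk1, Pacsin1 and Flt3) lower. The log2 changes of these 5 ran from -0.35 for Klk1 to -0.60 for Runx2. Of all tested genes, 3.75% were called higher and 2.66% lower. The part of the marker genes in the results was not tested. Cd3d, Cd3g, Gzma and Klra8, markers of T and NK cells, were at 0 in every library, but some other listed markers were not. Cd28 ranged from 201.2 to 336.3 over the libraries and Klrb1c from 21.2 to 54.7. The 7 B cell markers summed to 1561.5 to 2675.7 with R837 and 1707.9 to 2460.6 with taurine. The 7 monocyte and macrophage markers summed to 14023 to 15138 with R837 and 13895 to 16724 with taurine.

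Taurine came with higher transcript levels of Oasl1, Oas1a and Oas3, whereas Oas1g, Oasl2, Oas2, Oas1b and Oas1c did not pass the test. In all, 3 of 8 genes were higher and 0 lower by limma (4 and 0 at an unadjusted p under 0.05, 3 and 0 by edgeR, 4 and 0 by DESeq2), where 3.75% of all tested genes were called higher and 2.66% lower (6.41% either way). The 3 taurine libraries lay above the 3 R837 libraries for 4 of the 8 genes, against 14.6% of all tested genes. Without limma's abundance trend 0 of the 8 genes and 4 of all genes were called. A trend with exon length also separated the groups: the Spearman correlation across genes of a library's deviation from the gene mean with exon length was 0.108, 0.147 and 0.044 in the R837 libraries, against -0.1, -0.131 and -0.203 in the taurine libraries. With this trend removed, Oasl1 had a log2 change of 0.64, Oas1a 0.53 and Oas3 0.38, and all 3 were still called (limma adjusted p of 0.00608, 0.0164 and 0.0157). The median log2 change of the 8 genes was 0.30, and that of all tested genes was -0.01. These genes belong to an interferon response that was already known to rise in these data, so their direction is no separate evidence of it. In bulk samples fewer cells of a type and less RNA per cell cannot be told apart.

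**Figure D1:**
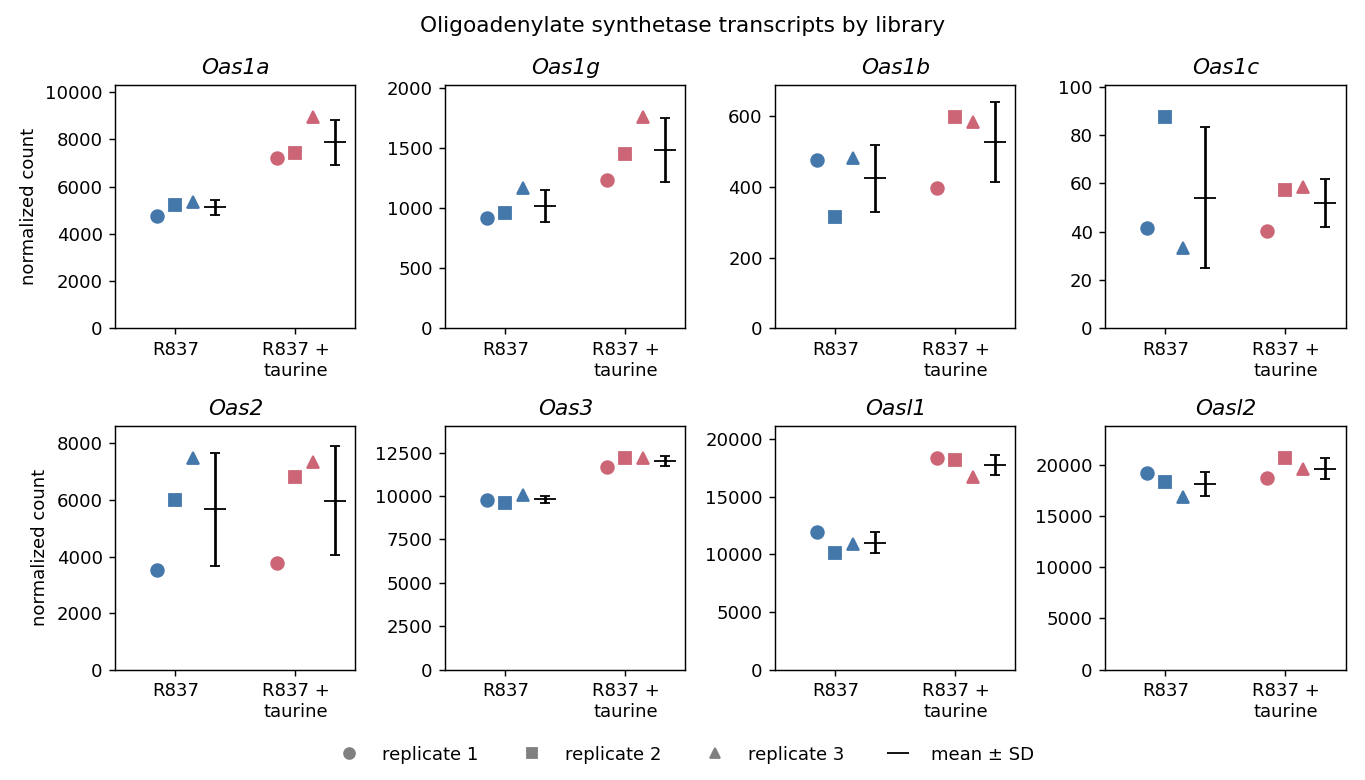
Normalized count (vertical axes, each from 0) of the 8 genes in each of the 6 libraries, with R837 in blue and R837 plus taurine in red; symbols mark replicates and black bars the mean ± SD (n = 3). The groups lie apart for Oas1a, Oas1g, Oas3 and Oasl1, and replicate 1 of both groups is low for Oas2.

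Oas1a encodes an active small synthetase (ENSMUSG00000052776.10, chromosome 5, 120896256 to 120907521, minus strand). In order of replicate number, as for all genes, its normalized count was 4770.2, 5239.5 and 5342 with R837, against 7213.5, 7433 and 8956 with taurine. All taurine values lay above all R837 values, and the highest was taurine replicate 3. The mean went from 5117 ± 305 to 7867 ± 949 (SD, n = 3), a log2 change of 0.62 ± 0.10 (SE, limma adjusted p = 0.0127). Without R837 replicate 2 the log2 change was 0.63 and the adjusted p = 0.0565, and with any other library left out the call was kept. It was also lost without limma's abundance trend (adjusted p = 0.102).

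Oas1g is a close copy of Oas1a that is also known as an active enzyme (ENSMUSG00000066861.14, chromosome 5, 120876142 to 120887613, minus strand). Its normalized count was 921.8, 961.6 and 1166 with R837 and 1237, 1454.5 and 1761 with taurine. The groups again did not overlap, but R837 replicate 3 and taurine replicate 1 lay close together. The log2 change was 0.54 ± 0.15 (SE) with a limma adjusted p = 0.0682, which misses the threshold. Without R837 replicate 3 Oas1g had 0.64 and passed (adjusted p = 0.0395). With the replicate number as a block it passed as well (adjusted p = 0.0423). Same-numbered libraries did not deviate together over all genes (r of -0.043 to -0.003), so this pass is no added support. Oas1g also passed by DESeq2 (adjusted p = 0.00791). On simulated data DESeq2 made 25 false calls among 23116 genes, against 2 among 15083 by limma. It also recovered more of the 50 genes raised 1.5-fold, 25 against 11.

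Reads of these copies can be exchanged. Of all stretches of 50 bases in the annotated transcripts of Oas1a, 57.6% also occur in transcripts of another gene, and for Oas1g the share is 45.7%, nearly all of it between the pair. The ratio of Oas1a to Oas1g lay between 4.58 and 5.45 in the R837 libraries and between 5.09 and 5.83 in the taurine libraries, so it overlapped. The reads of all 8 Oas1 genes of the cluster summed do not depend on how reads were split between copies. Dropping shared reads, or counting them for each copy, would still alter the sum, and how they were handled is not stated. This sum was 6209, 6605 and 7021 normalized counts with R837 and 8886, 9543 and 11358 with taurine, a log2 change of 0.58 given as a value with no test.

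Oas1b (ENSMUSG00000029605.16, chromosome 5, 120812635 to 120824163, plus strand) had lower counts than Oas1a and Oas1g in every library. Its normalized count was 475.5, 314.8 and 480.0 with R837 and 395.8, 597.8 and 582.8 with taurine. The groups overlapped, and the log2 change of 0.31 ± 0.22 (SE) did not pass (limma adjusted p = 0.430). Oas1c, a less studied copy (ENSMUSG00000001166.17, chromosome 5, 120800194 to 120812514, minus strand), was covered by 44, 91 and 32 reads in the R837 libraries, and by 40, 60 and 55 in the taurine libraries. At this depth no difference was detectable: the log2 change was 0.05 ± 0.41 (SE, limma adjusted p = 0.963), and it ran from -0.23 without R837 replicate 3 to 0.45 without R837 replicate 2. Exons of Oas1c overlap those of Gm43069 on the other strand by 227 bases, and with its reads added the log2 change was -0.05. Of the stretches of 50 bases in Oas1c transcripts, 15.1% also occur in transcripts of other genes on either strand. Part of its few reads may thus stem from other genes, which was not tested.

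Oas1d, Oas1e and Oas1f had 0 reads in every library, which allows up to 3 reads, or 0.0781 to 0.0893 CPM by library, for counting error only. Oas1h was at 0 in 5 libraries and had a normalized count of 1.9 in R837 replicate 2. Of the Oas1 copies of the cluster, Oas1a, Oas1g, Oas1b and Oas1c were thus the ones that passed the filter on low values.

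Oas3 and Oas2 encode the larger synthetases, built from repeats of the OAS unit, and human OAS3 is known as the member that binds long double-stranded RNA most tightly. Oas3 (ENSMUSG00000032661.9, chromosome 5, 120753098 to 120777661, minus strand) had normalized counts of 9783, 9583 and 10027 with R837 and 11672, 12189 and 12162 with taurine. The groups lay well apart and each was narrow. The mean went from 9798 ± 223 to 12008 ± 291 (SD, n = 3), a log2 change of 0.29 ± 0.06 (SE, limma adjusted p = 0.0269). Of 1178 tested genes within a factor of 2 of its level, only 3.2% had a smaller spread between libraries of a group.

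The call of Oas3 was lost in most fits with fewer libraries. Without R837 replicates 1 or 2 the limma adjusted p was 0.0824 or 0.111, and without taurine replicates 1, 2 or 3 it was 0.0694, 0.0988 or 0.0861. The log2 change stayed between 0.28 and 0.31 in these fits. With quantile normalization it was 0.23 (adjusted p = 0.0547), and with the replicate number as a block the adjusted p was 0.0579. Without limma's abundance trend it was 0.144.

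Oas2 (ENSMUSG00000032690.16, chromosome 5, 120730333 to 120749853, minus strand) did not pass. Its normalized count was 3538, 5985.5 and 7489 with R837, against 3773, 6812 and 7337 with taurine. Replicate 1 was the low library in both groups, and the groups covered nearly the same range. The log2 change was 0.08 ± 0.30 (SE, limma adjusted p = 0.907), and it was -0.2234, -0.0410 and -0.0945 without R837 replicate 1 or taurine replicates 2 or 3. The SD between libraries of a group was 0.54 on the log2 scale, larger than for 98.6% of 1970 tested genes of like level. Over all genes, libraries with the same replicate number did not deviate together (r of -0.04 to -0.003).

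Oasl1, the member without synthetase activity, had the largest log2 change of the 8 genes (ENSMUSG00000041827.15, chromosome 5, 114923240 to 114937915, plus strand). Its normalized count was 11939, 10164 and 10949.5 with R837 and 18382, 18188 and 16748 with taurine. The lowest taurine library stood far above the highest R837 library. The mean went from 11018 ± 889 to 17772 ± 892 (SD, n = 3), a log2 change of 0.69 ± 0.08 (SE, limma adjusted p = 0.00443). The call was kept with any 1 library left out, with log2 changes of 0.64 to 0.75, and lost without limma's abundance trend (log2 change 0.69, adjusted p = 0.0844). Exons of Gm13822 on the other strand overlap those of Oasl1 by 38 bases, and with its reads added the log2 change was 0.69.

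Oasl2, its active neighbour (ENSMUSG00000029561.17, chromosome 5, 114896936 to 114912234, plus strand), had normalized counts of 19247, 18387 and 16898.5 with R837 and 18694, 20700.5 and 19579 with taurine. The groups overlapped. The log2 change was 0.11 ± 0.07 (SE, limma adjusted p = 0.374), and it ran from 0.06 to 0.16 with 1 library left out.

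**Figure D2:**
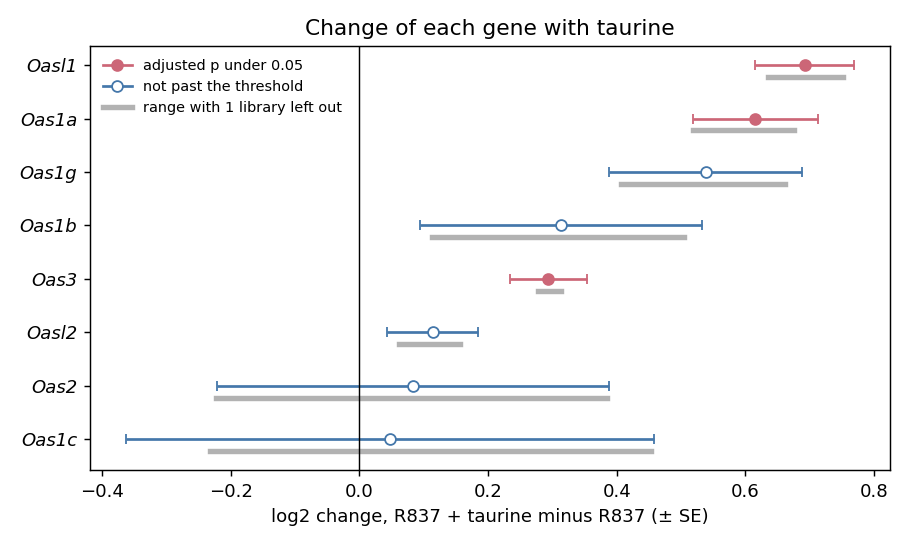
Log2 change of each gene (R837 plus taurine minus R837, horizontal axis) with its SE as a bar; filled red points have a limma adjusted p under 0.05, open blue points do not, and grey bars give the range with 1 library left out. Oasl1, Oas1a and Oas3 are filled, and the bars of Oas2 and Oas1c cross 0.

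Whether neighbouring genes differed from each other in their change was looked at through their ratio within each library, for 3 pairs chosen after the values were seen. The ratio of Oasl1 to Oasl2 was 0.620, 0.553 and 0.648 with R837, against 0.983, 0.879 and 0.855 with taurine. The groups did not overlap, with means of 0.607 ± 0.049 and 0.906 ± 0.068 (SD, n = 3). By exact permutation (two-sided) p was 0.1, the smallest that 3 against 3 libraries allow, and 0.3 after Benjamini-Hochberg adjustment over the 3 pairs. The trend with exon length was not removed from these ratios, and annotated exons span 2608 bases for Oasl1 and 6374 for Oasl2. With the trend removed, the log2 changes of Oasl1 and Oasl2 were 0.64 and 0.18, against 0.69 and 0.11 in the main fit. The ratio of Oas3 to Oas2 was 2.77, 1.60 and 1.34 with R837 and 3.09, 1.79 and 1.66 with taurine, which overlapped (exact permutation p = 0.5, adjusted 0.6). For Oas1a to Oas1g the exact permutation p was 0.6.

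**Figure D3:**
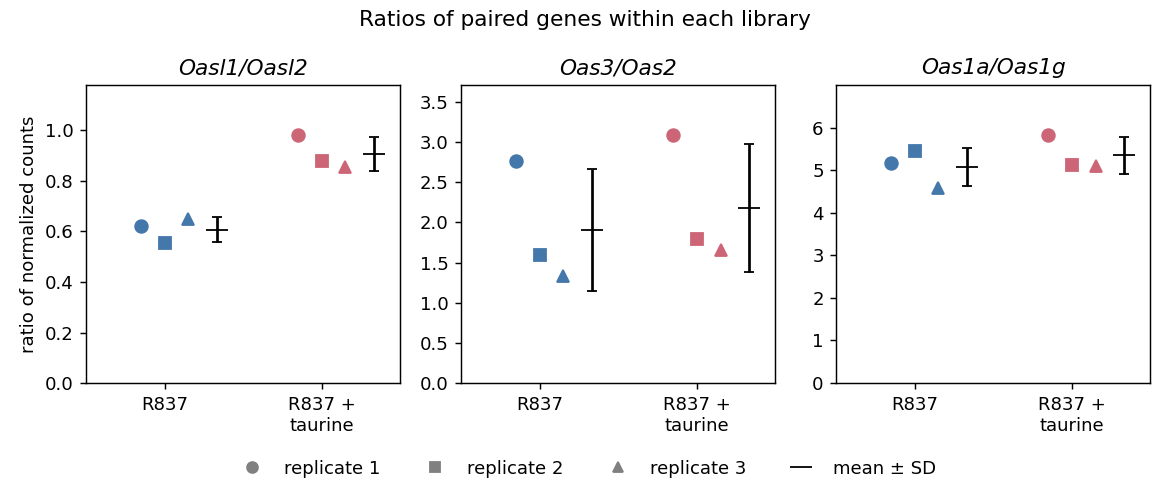
Ratio of the normalized counts of 2 genes within each library (vertical axes, each from 0) for 3 pairs, with R837 in blue and R837 plus taurine in red; symbols mark replicates and black bars the mean ± SD (n = 3). The ratio of Oasl1 to Oasl2 is at most 0.648 with R837 and at least 0.855 with taurine, and the other ratios overlap. The trend with exon length is not removed.

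Levels of different genes were compared per kilobase of annotated exon. With R837 alone, Oasl1 stood highest at 4224.5 ± 341 normalized counts per kilobase (SD, n = 3), a level above that of 97.3% of tested genes. Oasl2 (2852 ± 186) and Oas1a (2715 ± 162) came next and overlapped. Oas3 (1386 ± 31.5) and Oas2 (1274 ± 448) followed and also overlapped, and below them stood Oas1g (434 ± 56.0), Oas1b (213 ± 47.2) and Oas1c (22.5 ± 12.2), each clear of the gene above it.

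With taurine Oasl1 reached 6815 ± 342 normalized counts per kilobase. Oas1a, at 4174 ± 503, then lay above Oasl2, at 3084 ± 158, with no overlap between the libraries of these genes. The trend with exon length was not removed from any level per kilobase, and annotated exons span 1885 bases for Oas1a and 6374 for Oasl2. With the trend removed, the log2 changes of Oas1a and Oasl2 were 0.53 and 0.18, against 0.62 and 0.11 in the main fit. Stretches shared with Oas1g also leave the level of Oas1a uncertain. Oas3 (1699 ± 41.2) and Oas2 (1342 ± 432) no longer overlapped, by a narrow margin (lowest Oas3 library 1651, highest Oas2 library 1648). Of the summed level per kilobase of all 8 genes, the share of Oasl1 was 32.2% ± 2.73 with R837 and 37.9% ± 3.49 with taurine, and that of Oasl2 was 21.8% ± 1.95 and 17.1% ± 0.63 (SD, n = 3). For Oasl2 the libraries of the groups did not overlap in this share, and for Oasl1 they did. The sum itself was 12957, 12867 and 13538 with R837 and 17051, 18365 and 18683 with taurine.

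**Figure D4:**
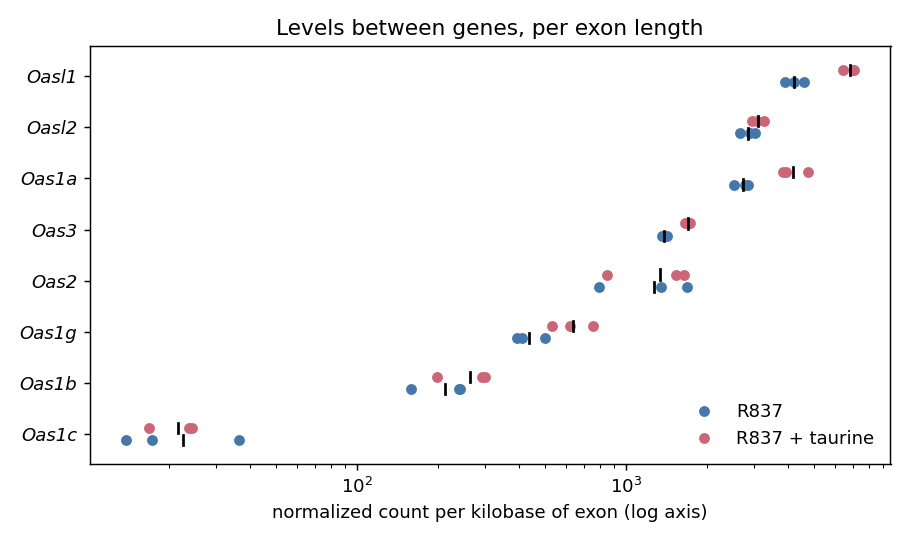
Normalized count per kilobase of annotated exon (horizontal log axis) of the 8 genes in each library, with R837 in blue, R837 plus taurine in red and group means as black lines. Oasl1 is highest in both groups, and Oas1a passes Oasl2 with taurine, in values from which the trend with exon length is not removed.

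Of the listed genes around the 2-5A response, Abce1, Pde12 and Akap7 did not pass the test by limma. Abce1, known as a ribosome recycling factor, had 5648, 6139.5 and 5075.5 with R837 and 4727, 4467 and 3473 with taurine. All its taurine values were lower, but the log2 change of -0.42 ± 0.12 (SE) did not pass by limma (adjusted p = 0.0808) and did by DESeq2 (adjusted p = 0.0129).

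Pde12, a phosphodiesterase that breaks down 2-5A, had a log2 change of -0.25 ± 0.11 (SE, limma adjusted p = 0.213). Its exons overlap those of Arf4, and with all reads of overlapping genes added the value was 0.25. That sum counts reads from the whole of Arf4, so it cannot show the direction of Pde12 itself. All taurine values of Pde12 lay below all R837 values, and its log2 change was -0.34 to -0.16 with 1 library left out. Whether reads of Arf4 enter the count of Pde12 was not tested. Akap7, whose phosphodiesterase domain also cleaves 2-5A, had -0.43 ± 0.30 (SE, limma adjusted p = 0.430). By edgeR these 3 genes were not called either, and Abce1 was the only one of them with an unadjusted p under 0.05 or a call by DESeq2.

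Among 24 tested genes of a list of RNA sensors, interferon signalling and 2-5A genes, 6 were higher and 1 lower with taurine. Of all tested genes, 3.75% were called higher and 2.66% lower. The median log2 change of the 24 genes was 0.12, and by edgeR 5 of them were higher and 1 lower. Irf7, whose mRNA is the target of Oasl1 in mice, had the largest log2 change of the 24. Its normalized count was 24748, 22974.5 and 24205 with R837 and 36430.2, 36795 and 39709 with taurine (log2 change 0.65 ± 0.06 (SE), limma adjusted p = 0.00297), and its call was kept with any 1 library left out but not without limma's abundance trend (adjusted p = 0.0844). Exons of Irf7 overlap those of Phrf1 by 45 bases, and with its reads added the log2 change was 0.60. Usp18, which removes ISG15 and restrains the interferon receptor, rose from 13858 ± 1320 to 19598 ± 166 (log2 change 0.50, limma adjusted p = 0.0112). Without R837 replicate 2 or taurine replicate 3 Usp18 had 0.46 and 0.50 (adjusted p = 0.0570 and 0.0503).

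Other sensors of double-stranded RNA rose by amounts near that of Oas3. Ifih1 (MDA5) went from 13336 ± 259 to 16669 ± 668 (log2 change 0.32, limma adjusted p = 0.0205), Ddx58 (RIG-I) from 8230.0 ± 554 to 10636 ± 287 (0.37, adjusted p = 0.0222) and Dhx58 (LGP2) from 9538 ± 617 to 12081 ± 546 (0.34, adjusted p = 0.0306). Zbp1, named after its value was seen, passed narrowly (0.31, adjusted p = 0.04997). Eif2ak2 (PKR), Adar, Mavs and Tlr3 did not pass. Ifnar1, a subunit of the type I interferon receptor, was the gene that fell, from 26819 ± 1340 to 21312 ± 467 (log2 change -0.33, limma adjusted p = 0.0188).

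Of these, Ifih1, Ddx58, Dhx58, Zbp1 and Ifnar1 each kept the call in 1 of the 6 fits with a library left out, the one without R837 replicate 3. In the other fits their limma adjusted p reached 0.0851, 0.0822, 0.119, 0.141 and 0.0902 at most. Stat2 and Irf9, parts of a complex that binds the motif shown in capitals above, had log2 changes of 0.05 and -0.09 and did not pass (limma adjusted p of 0.673 and 0.436). Irf1, another listed factor, had 0.28 with the groups apart. It did not pass by limma (adjusted p = 0.0746) and did by DESeq2 (adjusted p = 0.0244). The part of these factors in the levels of the OAS genes was not tested.

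**Figure D5:**
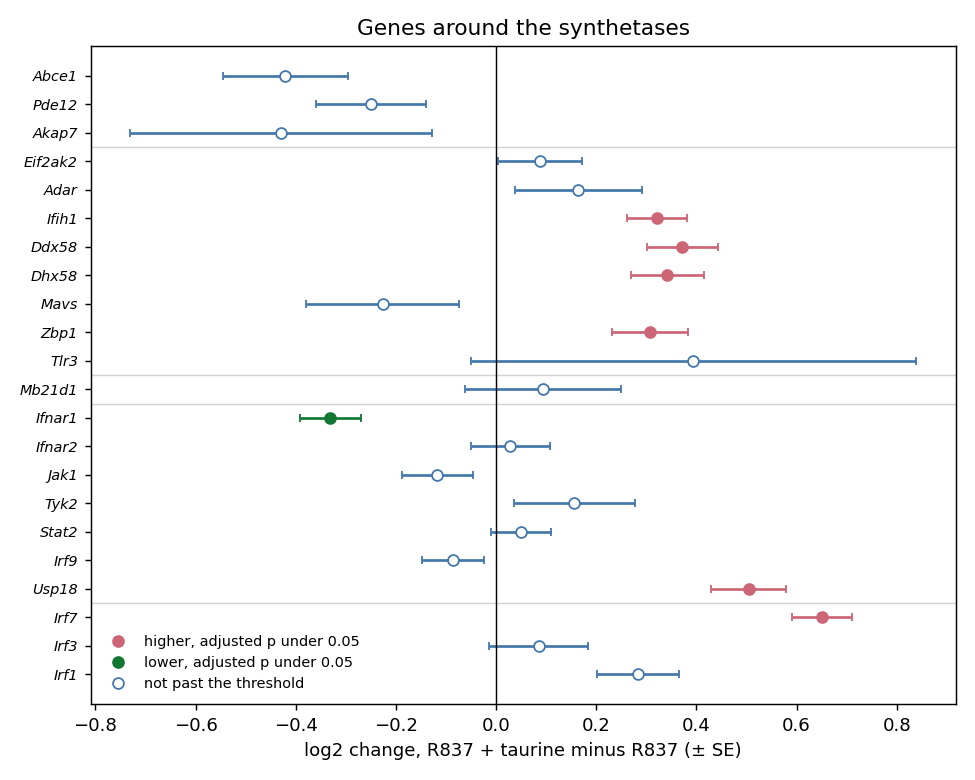
Log2 change (R837 plus taurine minus R837, horizontal axis) with its SE for tested genes around the synthetases, in blocks by role: the 2-5A genes on top, then RNA sensors, Mb21d1, interferon receptor and signalling genes, and the IRF factors. Filled red points are the 6 genes called higher, the filled green point is Ifnar1, and open points did not pass.

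Among the other 9628 named genes with a mean of at least 100, the profile over the 6 libraries that came nearest to the mean of the 8 OAS genes was that of Sec61b, a subunit of the protein channel of the endoplasmic reticulum, with a root mean square difference of 0.0434 on the centred log2 scale. Kxd1, Rpp21, Rnf122 and Snrpd2 came next (0.0555 to 0.0607). None of these 5 passed the test themselves (limma adjusted p of 0.0599 to 0.389; log2 changes of 0.28 to 0.40). The mean profile of the 8 genes was -0.26, -0.12 and -0.13 with R837, against -0.05, 0.25 and 0.31 with taurine, and the spread of Oas2 and Oas1c enters it.

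Summed markers of some other spleen cells lay apart between the groups, where 3.75% of all tested genes were called higher and 2.66% lower. The 7 neutrophil markers summed to normalized counts of 971 to 1390 with R837 and 1496 to 1873 with taurine, with 1 of 5 tested markers higher and Ly6g and Retnlg below 10 in every library. The 7 erythroid markers summed to 86.6 to 126 and 161.5 to 239, with 1 of 4 tested markers higher and Klf1 below 10 in every library. The 7 markers of conventional dendritic cells summed to 22949 to 23980 with R837 and 19782 to 20612 with taurine, with 1 of 7 (Clec9a) lower. Itgax, at 8978 to 11769 over the libraries, was the largest part of this sum. The single markers did not share a direction. Their log2 changes were -0.60 for Cd209a, -0.46 for Clec9a, -0.28 for Itgax, -0.21 for Sirpa, -0.001 for Xcr1, 0.12 for Zbtb46 and 0.54 for Batf3. The part of such cells in the levels of the OAS genes was not tested.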

How the data were processed

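The deposited files give 1 normalized count per gene and library, a signal value whose name comes from the authors, per the file headers. Dividing by the smallest step of a library gave whole reads for 100% of values (tolerance 0.001 of a read). The submitters' processing notes list HISAT2, StringTie, mm8 and mm10 without roles. Which program counted or normalized, and whether by strand, is not stated in the sources used here, so reads of overlapping genes on either strand cannot be told apart. Of 52403 identifiers shared with GENCODE M21 (mm10), 95.2% had the same coordinates, and exon lengths come from it.

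Log2(normalized count + 1) of the 15265 genes with at least 10 in at least 3 of 6 libraries was fitted with limma 3.58.1 (R 4.3.3, abundance trend, 1 group term, two-sided). Calls have an adjusted p under 0.05. On simulated data limma recovered 40 of 50 genes doubled, 32 of 50 halved, 11 of 50 raised 1.5-fold and 0 of 50 raised 1.25-fold. Small changes can thus be missed. Fewer genes were changed in the simulation than were called in the data, so these rates need not hold for the genes described. False calls numbered 2 by limma and 2 by edgeR among 15083 genes, and 25 by DESeq2 among 23116 genes. Of the 50 genes raised 1.5-fold, edgeR recovered 10 and DESeq2 25. edgeR 4.0.16 and DESeq2 1.42.0 were run on recovered reads, and 934 of the 979 limma calls were shared by edgeR. Pairs of libraries of 1 group differed by more than sampling noise (chi-square per degree of freedom of 20.6 or more). The reads of Oas1 copies were also summed. Described genes are the 8 members, the list of 28 surrounding genes with values for the 2-5A and other Oas1 genes and the 6 others of smallest p, and the 5 nearest profiles. Outside this rule, values are given for Zbp1, Stat2, Irf9 and Irf1, and for genes whose sign turned. The members and lists were chosen with earlier results of these data known. Some surrounding and marker genes are not reported here.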

Additional observations from a re-analysis of the deposited data

How the results depend on the processing

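Of the 8 genes, the same 3 were called higher with the other filters and pseudocounts, totals without the 50 most abundant genes, the exon length trend removed and edgeR. With the replicate block 3 were called as well, but Oas1g (limma adjusted p = 0.0423) stood in place of Oas3 (0.0579). The number was 2 with quantile normalization, 4 by DESeq2, 0 without limma's abundance trend (adjusted p of 0.0844 for Oasl1, 0.102 for Oas1a) and 1 to 4 with 1 library left out. The number lower was 0 in every fit. The log2 changes of Oas1a, Oas1b, Oas1g, Oas3, Oasl1 and Oasl2 were above 0 in all fits. That of Oas1c turned to -0.0515 by edgeR, -0.0606 by DESeq2, -0.0139 with the exon length trend removed and -0.0447 with the reads of overlapping genes added, and ran from -0.23 to 0.45 with 1 library left out. That of Oas2 ran from -0.22 to 0.39 in the latter fits. Over all genes 979 were called, against 547 without a filter, 4 without the abundance trend (3217 at an unadjusted p under 0.05), 1843 by DESeq2, 615 with the replicate block and 130 to 1503 with 1 library left out. Totals without the 50 most abundant genes lowered the share of higher calls from 58.5% to 44.1%, and it was 69.0% with the exon length trend removed, 50.7% by DESeq2 and 25% without the abundance trend. Of the surrounding genes, 6 were higher and 1 lower, against 0 and 0 without the abundance trend, 2 lower by DESeq2, 4 and 1 with the replicate block, and 1 to 6 higher and 0 to 1 lower with 1 library left out. Signs turned for Ifnar2 (-0.0330 with quantile normalization, -0.0053 without the top genes), Stat2 (-0.0453 with quantile normalization), Irf9 (0.0299) and Pde12 (0.25) with overlapping reads, and with 1 library left out for Tlr3 (-0.0521 to 0.787), Mb21d1 (-0.0084 to 0.248) and Ifnar2 (-0.0395 to 0.0662). With overlapping reads, all reads of the other gene are added, so the signs of Oas1c, Irf9 and Pde12 there are not theirs alone. Except where the alternative has fewer samples or other genes, the cause was not tested. The replicate numbers share only a number: same-numbered libraries had correlations of deviations of -0.003, -0.007 and -0.043. Depth limits Oas1c, with 32 to 91 reads.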
